A study of Ovis aries with 9 samples.

Results

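The growth arrest genes examined here are the p53 targets CDKN1A and CCNG1, the GADD45 genes GADD45A, GADD45B and GADD45G and the sestrin genes SESN1, SESN2 and SESN3, measured in ovine granulosa cells (GCs) at 3 glucose concentrations. They were taken by gene symbol from a table of 39157 genes, of which 17076 carry a symbol. Of 9 symbols listed, 8 were found, each in 1 row, and MDM2 was not analysed here. GCs line the ovarian follicle and nourish the oocyte. They came from follicles of 3 to 5 mm of thin-tailed Han ewes. The age of the ewes is 1 year in the series record, and the study's methods give a closed range that begins at 1 year. The cells were pooled before plating and were kept in all groups for 8 h without glucose and serum. They were then cultured for 24 h with 0 mM glucose (CON), 8.4 mM (LOW) or 33.6 mM (HIGH), with 3 libraries of total RNA per group. Nothing in the sources says that the libraries of a group came from separate pools of ewes, so the p-values measure the spread between these cultures.

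The transcription factor p53 is stabilised by DNA damage and other stress and switches on genes that stop the cell cycle. CDKN1A encodes p21, which inhibits cyclin-dependent kinases, while the GADD45 proteins bind p21, PCNA and stress kinases. Sestrins restrain the growth kinase mTORC1 when nutrients are short, and several genes of both families also respond to stress through factors other than p53, such as ATF4 and FOXO proteins. In the follicle, arrest and death of GCs accompany atresia, the loss of a follicle before ovulation.

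Levels are given as FPKM, the number of fragments corrected for transcript length and library depth, as deposited unless called scaled. Depending on the library, 48.0 to 71.3 fragments per kilobase gave an FPKM of 1, and 25403 to 28244 genes were above 0 in a library. Of the granulosa markers, 8 of the 10 examined reached an FPKM of 1 in all libraries, led by CYP11A1 (135 to 198), while the receptors FSHR (0.218 to 0.564) and AMHR2 (0.416 to 0.838) were low. CYP19A1, FOXL2 and AMH were not analysed here. All 6 stroma and smooth muscle markers were well above 1, with ACTA2 at 707 to 931 and COL3A1 at 304 to 486. The myeloid markers CD68 (7.45 to 13.1) and CD14 (6.15 to 7.89) were present in all libraries. Of epithelium, KRT8 was present in all libraries (5.55 to 17.5), while EPCAM did not exceed 0.581. The theca markers CYP17A1 and INSL3 did not exceed 0.412 and 0.0843. Of the oocyte markers BMP15 was at 0 throughout and GDF9 at 0.533 to 0.863, while the endothelial CDH5 was at 0 and the leukocyte gene PTPRC did not exceed 0.697. The summed FPKM of the 10 granulosa markers ran from 233 to 262 in CON, with 199 to 214 in LOW and 182 to 208 in HIGH. That of the stroma markers was 3168 to 4386, 3339 to 3553 and 2542 to 3616 in the same order. Most of the granulosa sum was CYP11A1, with a median FPKM of 159 over the libraries, against 12.3 for INHA, the next highest marker. A fall shared by the granulosa markers can therefore not be read from this sum. Both sums are of FPKM as deposited, without scaling. The part of the granulosa marker difference in the results was not tested. In such bulk samples, fewer cells of a type and less RNA per cell cannot be told apart.

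The growth arrest genes were expressed at very unequal levels, and none of the 8 passed the test between glucose groups, in which 0.00821% to 0.0164% of all genes were called. The test was limma on log2 levels scaled so that the libraries share 1 median over well-expressed genes, with Benjamini-Hochberg (BH) adjustment. CCNG1 and CDKN1A, with mean FPKM of 218 and 203 over the 9 libraries, stood at percentiles 99.3 and 99.2 of all genes above 0. GADD45A (17.2) and SESN3 (15.9) formed a middle tier, and GADD45B (6.25), SESN1 (3.44), SESN2 (3.04) and GADD45G (2.499) a low one. The lowest, GADD45G, was still at percentile 67.5 and rested on 90.6 to 237 fragments per kilobase in a library. CDKN1A lay above GADD45A in 9 of 9 libraries by 11.8-fold, and SESN3 above GADD45B in 9 of 9 by 2.54-fold, both without overlap of their ranges. Apart from GADD45B and SESN1, neighbours within a tier changed order between libraries. CCNG1 exceeded CDKN1A in 7 of 9 libraries, GADD45A exceeded SESN3 in 6 of 9, SESN1 exceeded SESN2 in 7 of 9 and SESN2 exceeded GADD45G in 6 of 9. Within the low tier, GADD45B exceeded SESN1 in 9 of 9 libraries, by 1.82-fold in the means, although their ranges over all libraries overlapped.

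**Figure D1:**
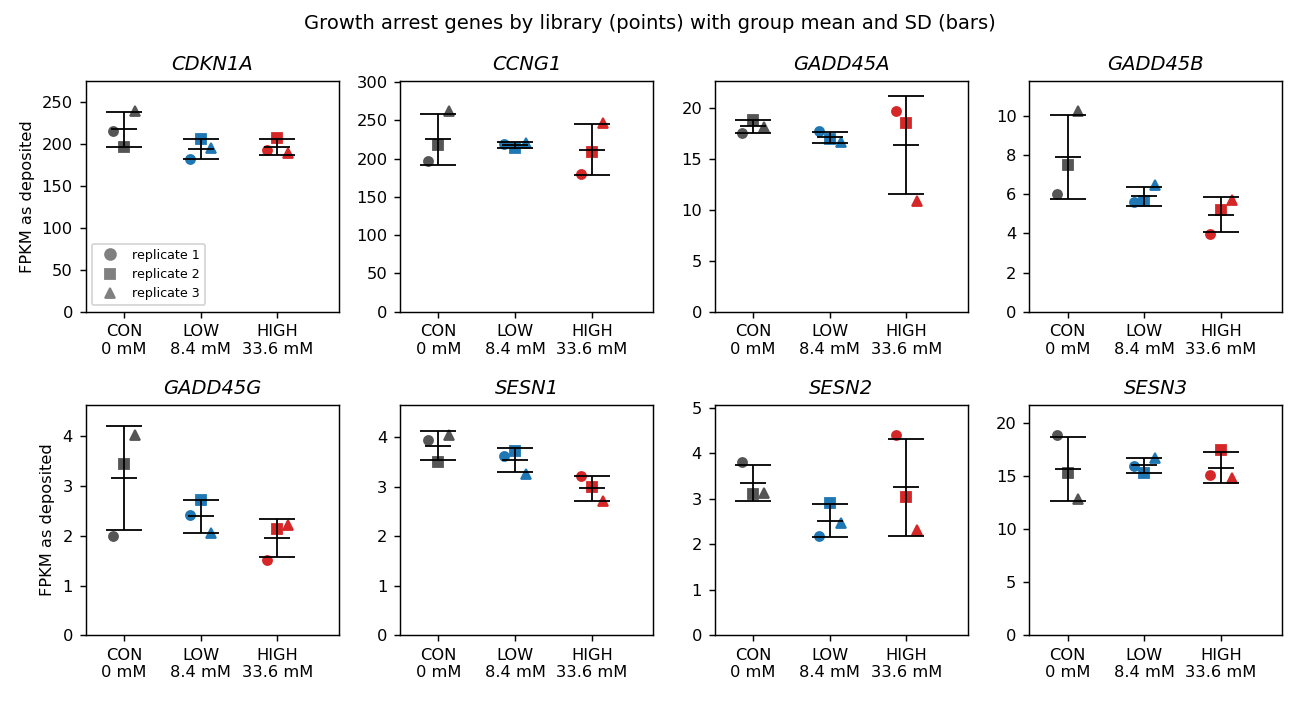
FPKM as deposited (vertical axes from 0, one scale per gene) of the 8 growth arrest genes in CON, LOW and HIGH; points are libraries, with shapes for the replicate number, and bars are the mean and SD of 3 libraries. CDKN1A and CCNG1 lie near 200, SESN1 is lower in all HIGH libraries than in the other 6, and 1 HIGH library stands low for GADD45A.

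CDKN1A, at 20:10678753-10680684 in the deposited coordinates, had FPKM of 216, 197 and 239 in CON, 183, 206 and 195 in LOW, and 192, 207 and 189 in HIGH. The groups overlapped, and only CON replicate 3 stood somewhat above the rest. On the scaled log2 level, CDKN1A differed by -0.05 between LOW and CON (95% interval -0.30 to 0.20) and by -0.04 between HIGH and CON (-0.29 to 0.21). These were the narrowest intervals of the 8 genes.

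CCNG1 encodes cyclin G1, a p53 target that recruits a phosphatase to the p53 regulator MDM2, and lies at 5:72437264-72442474. Its FPKM was 197, 217 and 262 in CON, 220, 213 and 220.5 in LOW, and 179.8, 209 and 247 in HIGH. LOW was tight (SD 3.85 around 218), while CON (225 ± 33.4, n = 3) and HIGH (212 ± 33.7, n = 3) each spread over a range that contained all LOW values. The scaled log2 difference was 0.07 for LOW over CON (interval -0.27 to 0.42) and 0.01 for HIGH over CON (-0.33 to 0.36). Without scaling these differences were -0.04 and -0.09, so no direction can be given.

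All 3 GADD45 genes had a lower mean FPKM in HIGH than in CON, and none passed the test. GADD45A, the member best known as a direct p53 target, lies at 1:42934044-42939423. It had FPKM of 17.6, 18.9 and 18.2 in CON, 17.7, 17.0 and 16.7 in LOW, and 19.7, 18.6 and 10.8 in HIGH. Of the 9 libraries 8 lay between 16.7 and 19.7, and HIGH replicate 3 stood apart, with a scaled log2 level that deviated by -0.52 from its group mean. The scaled log2 difference was -0.10 for HIGH over CON (SE 0.20) and 0.02 for LOW over CON (SE 0.20), which became -0.09 without scaling. Without HIGH replicate 3 the HIGH over CON difference was 0.16, so its direction rested on that library. Both GADD45A transcripts were low in that HIGH library, at 5.46 FPKM for the annotated GADD45A-201 and 5.39 for an assembled transcript, against 9.82 to 12.0 and 6.72 to 7.89 in the other libraries.

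GADD45B, which is induced by inflammatory and growth factor signals and activates the p38 and JNK kinase cascades, lies at 5:18678066-18681037. Its FPKM was 5.99, 7.51 and 10.2 in CON, 5.59, 5.64 and 6.45 in LOW, and 3.96, 5.19 and 5.71 in HIGH. All HIGH libraries lay below all CON libraries as deposited, but after scaling the lowest CON library (5.56) lay below the highest HIGH library (5.89). GADD45B was the only member with an unadjusted limma p under 0.05 in a comparison: its scaled log2 difference for HIGH over CON was -0.55 (SE 0.21, interval -1.02 to -0.07), with a BH-adjusted p of 0.651 over 24356 genes. A difference of this size or larger, in either direction, was present in 25.2% of all genes tested. The unadjusted p stayed under 0.05 in 5 of 9 fits that left out 1 library. It rose to 0.106 at most, and passed 0.05 without CON replicate 2, CON replicate 3, HIGH replicate 1 or HIGH replicate 2. For LOW over CON the difference was -0.28 and for HIGH over LOW -0.27, both with intervals that included 0. With 1 library left out, the first ran from -0.48 without CON replicate 1 to -0.077 without CON replicate 3, and the second from -0.38 without HIGH replicate 3 to -0.14 without HIGH replicate 1.

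GADD45G, a further activator of the same kinases, lies at 2:24276167-24277452. It had FPKM of 1.99, 3.45 and 4.03 in CON, 2.41, 2.71 and 2.05 in LOW, and 1.51, 2.13 and 2.21 in HIGH. CON replicate 1 fell among the HIGH values, and the groups overlapped. The scaled log2 difference for HIGH over CON was -0.53 (SE 0.27, interval -1.14 to 0.08), with a limma adjusted p of 0.651. CON replicate 1 was also the lowest of its group for GADD45B, and without it the HIGH over CON differences of GADD45B and GADD45G were -0.74 and -0.83, with an adjusted p of 0.171 for each. Without CON replicate 3 they were -0.35 and -0.34. For LOW over CON the difference of GADD45G was -0.23, and ran from -0.54 without CON replicate 1 to -0.032 without CON replicate 3.

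Summed over the family, GADD45 FPKM was 29.3 ± 3.47 in CON, 25.4 ± 0.282 in LOW and 23.3 ± 3.94 in HIGH (SD, n = 3 each). GADD45A made up 62.7%, 67.4% and 69.3% of this sum in CON, LOW and HIGH. The share of GADD45B was 26.7%, 23.2% and 22.1%, and its SD in HIGH was 7.56 percentage points, and the shares overlapped between groups.

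SESN1 is a p53 target that dampens mTORC1 signalling, and it lies at 8:28163840-28282358. Its FPKM was 3.94, 3.50 and 4.05 in CON, 3.62, 3.72 and 3.26 in LOW, and 3.21, 3.00 and 2.70 in HIGH. All 3 HIGH libraries were below all CON and all LOW libraries, with or without scaling. The scaled log2 difference was -0.26 for HIGH over CON (SE 0.14, interval -0.57 to 0.06), -0.25 for HIGH over LOW (SE 0.14, interval -0.56 to 0.06) and -0.01 for LOW over CON (SE 0.14). None passed the limma test, with adjusted p of 0.651, 0.628 and 1.00.

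SESN2, which senses leucine and is strongly induced by ATF4 under nutrient stress, lies at 2:237982978-237991184. It had FPKM of 3.81, 3.11 and 3.14 in CON, 2.18, 2.91 and 2.48 in LOW, and 4.41, 3.04 and 2.32 in HIGH. All LOW libraries were below all CON libraries as deposited but not after scaling, and the HIGH libraries held the highest value of all. The scaled log2 difference was -0.29 for LOW over CON (SE 0.24) and 0.31 for HIGH over LOW (SE 0.24). The latter was 0.049 without HIGH replicate 1 and 0.51 without HIGH replicate 3, so its size rested on single libraries, and the former ran from -0.40 without LOW replicate 2 to -0.19 without LOW replicate 1. For HIGH over CON it was 0.02, or -0.08 without scaling. ATF4 itself had FPKM of 78.2 ± 19.1 in CON, 69.4 ± 7.12 in LOW and 87.5 ± 13.9 in HIGH (SD, n = 3 each). Its limma adjusted p was 0.629 or more, and a link between ATF4 and SESN2 in these cells was not tested.

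SESN3, a FOXO target that acts on mTORC1 and AKT signalling, lies at 15:14730032-14751913. Its FPKM was 18.9, 15.3 and 12.9 in CON, 16.0, 15.3 and 16.8 in LOW, and 15.1, 17.5 and 14.8 in HIGH. CON held both the highest and the lowest library, and the group means of 15.7, 16.0 and 15.8 lay within 1 SD of each other. SESN3 made up 68.3%, 72.6% and 71.8% of the summed sestrin FPKM in CON, LOW and HIGH. The sum itself was 22.9 ± 3.40, 22.1 ± 0.370 and 22.0 ± 1.93 (SD, n = 3 each). SESN1 made up 17.0 ± 2.83%, 16.0 ± 1.33% and 13.5 ± 0.690% of it.

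**Figure D2:**
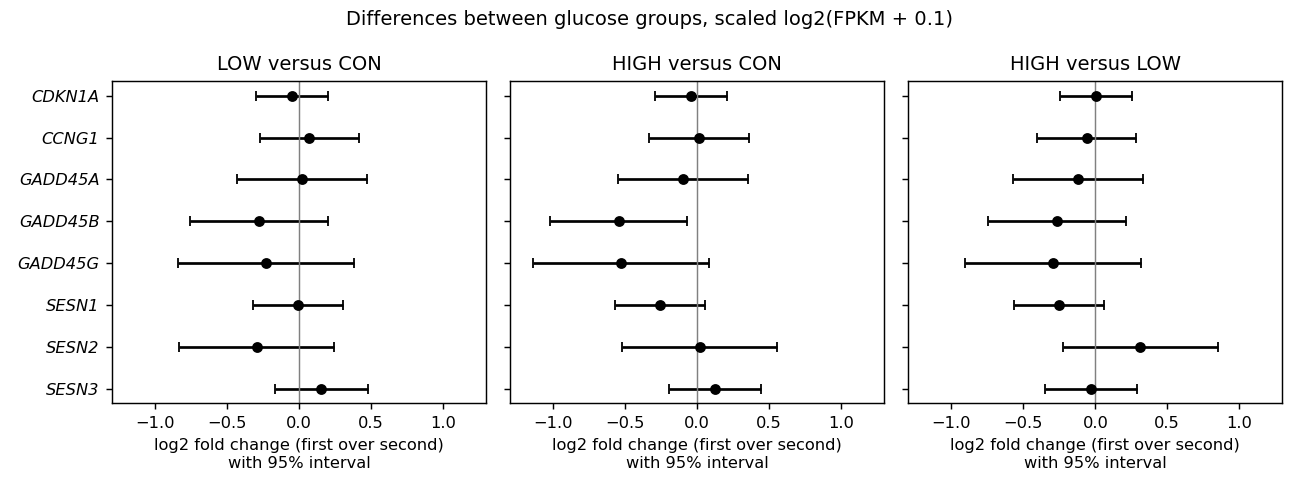
Scaled log2 differences (horizontal axes, first group over second) of the 8 genes in the 3 comparisons, with 95% intervals from limma. GADD45B in HIGH versus CON is the only interval that excludes 0, from -1.02 to -0.07.

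With limma and BH adjustment over 24356 genes, 0 of 8 members passed an adjusted p of 0.05 in LOW versus CON, HIGH versus CON, HIGH versus LOW or the F test of any difference among the 3 groups. Over all genes, 0.0123%, 0.0123%, 0.00821% and 0.0164% were called in these 4 tests, so nearly all genes tested gave the same outcome. At an unadjusted p under 0.05 the counts were 0 of 8 in LOW versus CON (all genes 1.84%), 1 of 8 in HIGH versus CON (6.81%), 0 of 8 in HIGH versus LOW (8.01%) and 0 of 8 in the F test (5.53%). Groups without overlap on the scaled level were found for 0 of 8 in LOW versus CON (all genes 6.13%), and for SESN1 alone in HIGH versus CON (9.52%) and in HIGH versus LOW (18.7%). The median scaled log2 difference of the members was -0.03, -0.07 and -0.09 in LOW versus CON, HIGH versus CON and HIGH versus LOW. Over all genes it was 0.01, 0.12 and 0.11. All 8 members had an FPKM of 1 or more in every library, as had the genes that set the scaling. The genes tested needed only 0.1 in 3 libraries, so the 2 medians are of genes at unlike levels. In HIGH versus CON 5 members were lower and 3 higher, and the quartiles of all genes were -0.15 and 0.46. The scaling removed a shift of -0.11 in LOW versus CON and -0.10 in HIGH versus CON over 11689 genes. The comparisons share libraries, so their values for a member are not independent. All 8 intervals lay within 1 log2 unit of 0 in LOW versus CON and in HIGH versus LOW, as did 6 of 8 in HIGH versus CON, where those of GADD45B and GADD45G reached -1.02 and -1.14.

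The share of the variance of scaled log2 levels that lay between the groups differed among the genes. It was 67.9% for SESN1, 48.9% for GADD45B, 35.6% for GADD45G and 24.4% for SESN2, against a median of 23.9% over all genes (quartiles 12.8% and 39.1%). For SESN3, CDKN1A, GADD45A and CCNG1 it was 19.3%, 7.66%, 5.21% and 4.10%. For every member but SESN1, most of the spread was thus between libraries of the same group. In the limma F test of any difference among the groups, p was 0.161 for SESN1 and 0.082 for GADD45B, with an adjusted p of 0.839 for both.

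Of the 8 members 6 were represented by 1 transcript and GADD45A by 2, whereas 5 were summed in the value of SESN1. The annotated SESN1-201 carried 52.2% of SESN1 FPKM on average and an assembled transcript of nearly the same span 30.5%. A shorter assembled transcript carried 9.15%, SESN1-202 carried 0.189%, and SESN1-AS1, named as antisense to the gene, carried 7.98%. SESN1-201 had FPKM of 2.002, 1.84 and 2.29 in CON, 1.64, 2.26 and 1.81 in LOW, and 1.37, 1.42 and 1.56 in HIGH. SESN1-AS1 had 0.378, 0.184 and 0.0684 in CON, 0.329, 0.145 and 0.215 in LOW, and 0.401, 0.441 and 0.230 in HIGH. The sense transcript was thus lowest in the HIGH libraries, while the antisense transcript reached its highest values there and overlapped between groups. Its share of SESN1 was 5.51 ± 3.95% in CON, 6.53 ± 2.59% in LOW and 11.9 ± 3.15% in HIGH (SD, n = 3 each). The log2 difference for HIGH over CON was -0.35 (SE 0.19) for SESN1-201 and 0.73 (SE 0.46) for SESN1-AS1, both with a limma adjusted p of 0.734 over 39429 transcripts. Whether the counting used strand is not given in the sources used here, so reads of SESN1 and SESN1-AS1 may not have been told apart. With the antisense transcript left out of the SESN1 value, an alternative chosen after seeing the data, the log2 difference was -0.35 for HIGH over CON and -0.33 for HIGH over LOW, with adjusted p of 0.651 and 0.615. The 12 member transcripts tested gave 1 unadjusted p under 0.05 in 36 tests (GADD45B-201 in HIGH versus CON) and no adjusted p under 0.713. The share of all 39429 transcripts with an unadjusted p under 0.05 was not worked out, so this count has no background to be read against.

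**Figure D3:**
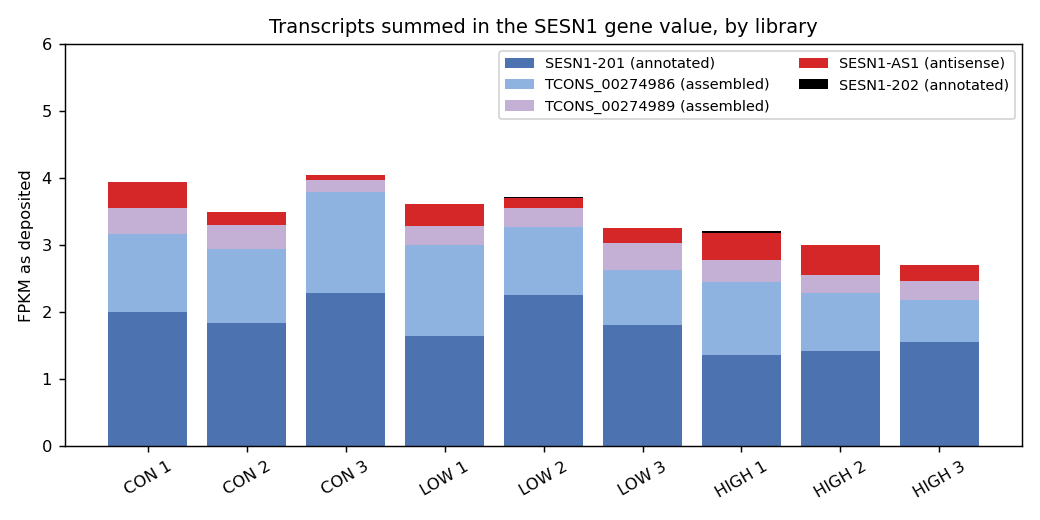
FPKM of the 5 transcripts summed in SESN1 (stacked bars, from 0) in each of the 9 libraries. The stacked sense transcripts are lower in the HIGH libraries than in the other 6, while the antisense SESN1-AS1 takes 11.9% of the sum there against 5.51% in CON.

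Within the families, GADD45B and GADD45G were the pair that varied most alike across the 9 libraries. Over the 28 pairs, Pearson's r of scaled log2 levels ran from -0.76 to 0.87 with a median of 0.08, and 16 pairs were positive. GADD45B and GADD45G had r = 0.87 (rho 0.83), and r = 0.80 for deviations from the group means. GADD45A had r of -0.17 with GADD45B and -0.08 with GADD45G, and the sestrin pairs ran from -0.28 to 0.15. CCNG1 and GADD45B had r = 0.63, and 0.93 within groups. SESN3 varied opposite to both GADD45B (-0.68) and GADD45G (-0.76), and CCNG1 opposite to SESN2 (-0.72). SESN1 and SESN2 had r = 0.15 over all libraries and 0.74 within groups. These values describe 9 libraries that share depth and processing. In each group the library with the fewest genes detected, which had the lowest depth too, held the highest CCNG1 and GADD45B FPKM; it was replicate 3 each time. The genes detected in these libraries were 25403 in CON, 25884 in LOW and 26123 in HIGH, and the part of this measure in the correlations was not tested.

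**Figure D4:**
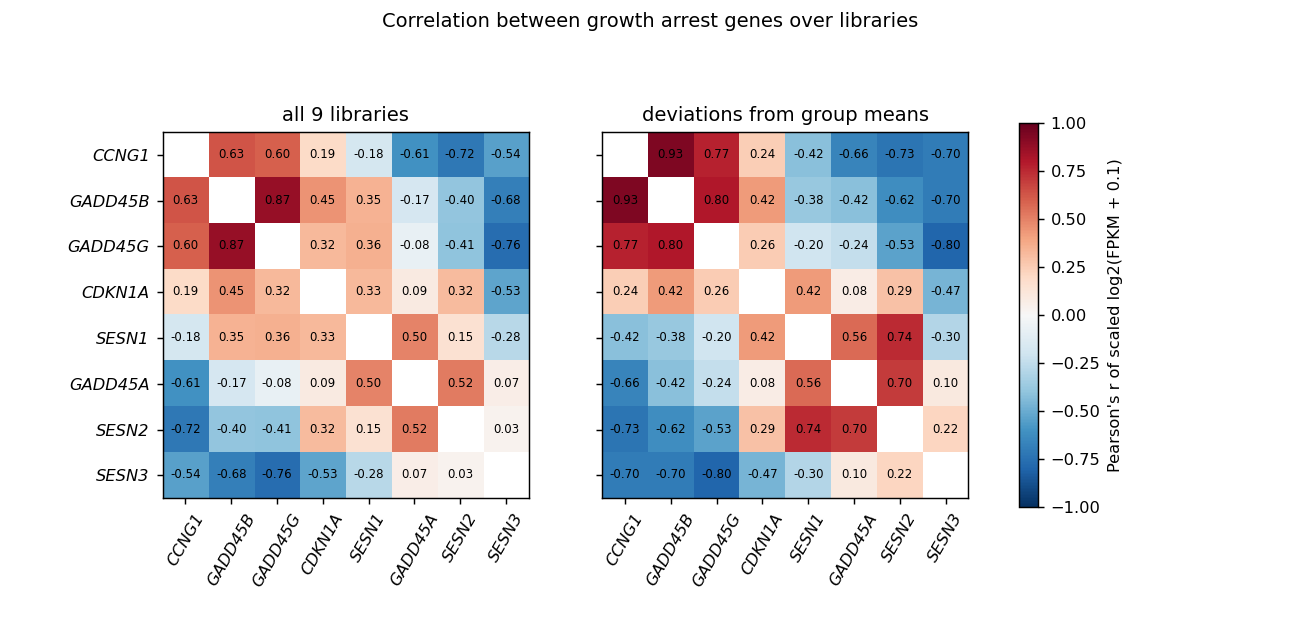
Pearson's r of scaled log2(FPKM + 0.1) between the 8 genes, over all 9 libraries (left) and for deviations from the group means (right), with colour from -1 to 1. CCNG1, GADD45B and GADD45G form a positive block, with r of 0.60 to 0.87 on the left, and SESN3 is negative with all of them.

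Among 8609 genes with a symbol and an FPKM no lower than 1 in any library, the genes whose scaled log2 level was most like that of a member had r of 0.930 to 0.993 over the 9 libraries. They were SMIM14 (0.977) and C15orf48 (0.964) for CCNG1, STAT5A (0.936) and ISG20L2 (0.931) for CDKN1A, and FSTL3 (0.938) and ELMO2 (0.930) for GADD45A. For GADD45A and FSTL3 rho was 0.45 only, and HIGH replicate 3 was the lowest library of GADD45A. GADD45B was most like CRELD2 (0.977, rho 1.00) and APOE (0.976), and GADD45G most like DGKZ (0.993) and THOC6 (0.982). SESN1 was most like HAUS8 (0.954) and INTS12 (0.946), SESN2 most like RNF26 (0.974) and ATG7 (0.948), and SESN3 most like EPC2 (0.987) and SMCHD1 (0.984). These are the highest of all r values computed over 9 points, and no test was made of them.

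Among other genes of the p53, GADD45 and sestrin pathways no difference passed the adjusted threshold either. Of 81 listed genes 66 had a row and 62 were tested, and 0 passed an adjusted p of 0.05 in any comparison. At an unadjusted p under 0.05 there were 2 in LOW versus CON (3.23%, both lower), 8 in HIGH versus CON (12.9%, 4 higher and 4 lower) and 2 in HIGH versus LOW (3.23%, 1 in each direction), beside 1.84%, 6.81% and 8.01% of all genes. The median log2 differences of 0.03, 0.00 and 0.01 lay near 0.

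Genes of these lists whose groups did not overlap and whose unadjusted p was under 0.05 were few. In HIGH versus CON, FAS, a death receptor, had a log2 difference of 0.36 (SE 0.13), and the kinase CDK2, a target of p21, had 0.35 (SE 0.15). SQSTM1, the autophagy receptor p62 that binds sestrins, had -0.25 (SE 0.10), from 235 ± 20.2 FPKM in CON to 184.0 ± 8.65 in HIGH (SD, n = 3 each). In HIGH versus LOW, TSC2, a brake on mTORC1, had 0.79 (SE 0.26), and PLK2, a p53-induced kinase, had -0.28 (SE 0.09). In LOW versus CON, IGFBP3, which binds insulin-like growth factors, had -0.72 (SE 0.30). The limma adjusted p was 0.651 for those in HIGH versus CON, 0.588 in HIGH versus LOW and 1.00 in LOW versus CON. With 1 library left out, the unadjusted p stayed under 0.05 in 8 of 9 fits for PLK2, 9 of 9 for TSC2, 7 of 9 for FAS, 6 of 9 for IGFBP3, 2 of 9 for SQSTM1 and 1 of 9 for CDK2.

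The antiproliferative gene BTG1 had the largest difference of the lists, and it rested on 2 libraries. Its FPKM was 15.4, 132 and 113 in CON, 11.7, 11.3 and 7.94 in LOW, and 10.0, 9.74 and 10.7 in HIGH. The log2 difference was -2.47 for LOW over CON and -2.49 for HIGH over CON (SE 0.68 for both), with limma adjusted p of 1.00 and 0.651. The high values came from the short annotated transcript BTG1-201, at 0.0690, 122 and 105 FPKM in CON, 0.0926, 0.0732 and 0.102 in LOW, and 0.0582, 0.0808 and 0.0884 in HIGH. The longer assembled BTG1 transcript was at 7.05 to 11.1 FPKM in all 9 libraries and overlapped between groups. Whether reads were assigned to BTG1-201 correctly was not tested. With CON replicate 1, the CON library that lacks this transcript, left out, the adjusted p of BTG1 was 0.000479 in LOW versus CON and 0.000233 in HIGH versus CON, with log2 differences of -3.48 and -3.49.

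**Figure D5:**
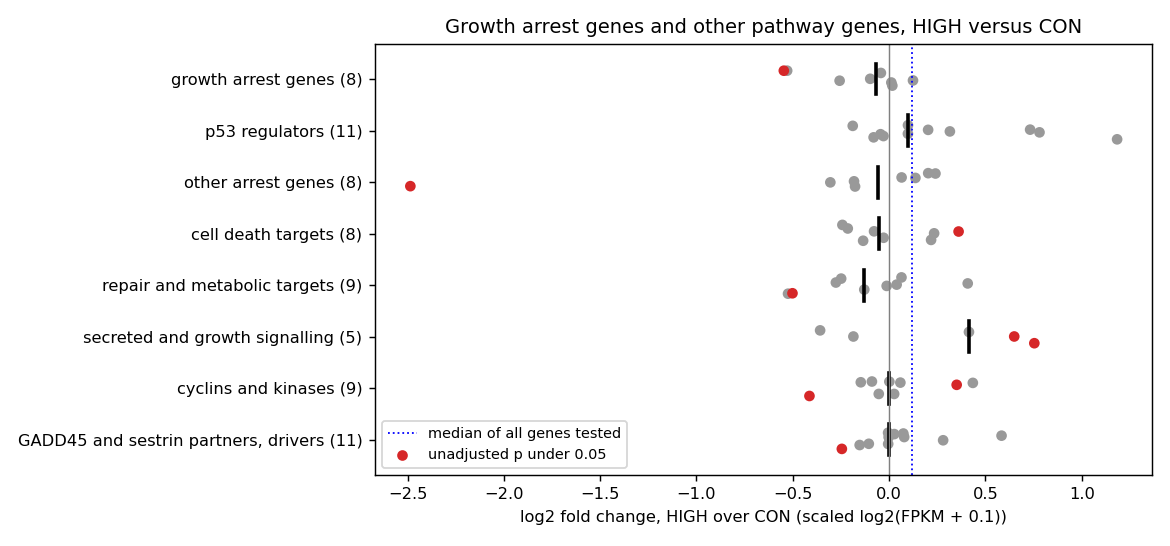
Scaled log2 differences for HIGH over CON (horizontal axis) of the 8 growth arrest genes and 61 other pathway genes by list, with the number of genes in brackets, list medians as black bars and the median of all genes (0.12) as a dotted line; red points have an unadjusted p under 0.05. Points scatter on both sides of 0 in every list, and BTG1 lies apart at -2.49.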

How the data were processed

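RNA of 9 GC libraries was sequenced after rRNA depletion. The authors aligned reads with Hisat2, assembled transcripts with Stringtie and deposited FPKM per transcript and gene. The submitters' processing notes also name TopHat2, STAR 2.5.1b and HTSeq 0.6.0. The genome build is not given in the sources used here. The deposited tables listed as read counts hold FPKM times genomic span times 1 factor per library (within 3% for 100% of values compared), so they were treated as a score and used only for depth, and the planned count tests were not run. Transcript FPKM of Ensembl genes without a symbol was rescaled by a factor per library, taken from that library's total gene FPKM. After this step, gene FPKM equalled the sum of its transcripts within 0.1% for 99.98% of values. The transcript test used the rescaled values. 0 columns were without a sample.

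Libraries were scaled on the median log ratio of genes with an FPKM of 1 or more in every library. log2(FPKM + 0.1) was tested with limma 3.58.1 (R 4.3.3, trend, 3 groups in 1 model) for genes that spanned at least 300 bases and reached an FPKM of 0.1 in 3 libraries or more, with BH adjustment over all of them. Fold changes on this scale understate those of low genes. Fits were tested on simulated data in which the planted changes were larger than any difference of the members. That check does not show how the fits perform at differences of the members' size. Levels are mean ± SD of FPKM, and Python 3.11.15 with pandas 2.3.3 and scipy 1.17.1 was used. Intervals cover 95%.

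The members and lists were chosen with earlier results of these data known. Named are the members, listed pathway genes with an unadjusted p under 0.05 and no overlap of groups (at most 8 per comparison), and the 2 most alike genes of each member. ATF4 and marker genes were named beside them as background, chosen after their values were seen. The values of 1 listed pathway gene are not reported here. Alternatives were a pseudocount of 1, no filter, an FPKM filter of 1, no scaling, 2 groups only, a replicate block, each library left out and summed rows of a symbol. The SESN1 value without its antisense transcript and no limit on span were added after seeing the data.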

Additional observations from a re-analysis of the deposited data

How the results depend on the processing

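No member passed an adjusted p of 0.05 under any alternative run (pseudocount, filters, scaling, 2 groups only, replicate block, each library left out, and those added after seeing the data), and the lowest adjusted p over them was 0.171. Of 432 alternative log2 differences of members, 403 kept their sign and 29 did not, 23 of these on leaving out a library. By construction, filters, the replicate block, summed rows and the span setting left each difference unchanged, so their values could not reverse. The largest main difference that reversed had a size of 0.124, and the cause was not tested. Without scaling, the differences were -0.088 for GADD45A and -0.039 for CCNG1 in LOW versus CON, and -0.083 for SESN2 and -0.091 for CCNG1 in HIGH versus CON. With only the 2 groups compared, they were 0.000455 for SESN1 in LOW versus CON and -0.0029 for CDKN1A in HIGH versus LOW. With 1 library left out, the ranges in HIGH versus CON were -0.12 to 0.12 for CCNG1, -0.091 to 0.022 for CDKN1A, -0.28 to 0.16 for GADD45A, -0.24 to 0.22 for SESN2 and -0.016 to 0.25 for SESN3. In HIGH versus LOW they were -0.19 to 0.028 for CCNG1, -0.050 to 0.049 for CDKN1A, -0.30 to 0.14 for GADD45A and -0.075 to 0.018 for SESN3. In LOW versus CON they were -0.038 to 0.19 for CCNG1, -0.10 to 0.025 for CDKN1A, -0.018 to 0.065 for GADD45A and -0.051 to 0.037 for SESN1. The difference of SESN3 in LOW versus CON kept its sign at 0.024 to 0.28. Deviations of same-numbered libraries correlated at -0.03 to 0.42, over 0.1 in 5 of 9 pairs, and 6 of 9 libraries correlated best with their own number, short of the 9 of 9 pairs required here to treat equal numbers as pairs, although the second count leans towards pairing. With the replicate block, 0 members passed the adjusted threshold. In HIGH versus CON, 2 members (GADD45B and GADD45G) in place of 1 then had an unadjusted p under 0.05, while the share of all genes went from 6.81% to 14.9%. Their limma p with the block was 0.0035 for GADD45B (adjusted 0.261) and 0.045 for GADD45G (adjusted 0.331). The count of members with an unadjusted p under 0.05 in HIGH versus CON was 3 without scaling (all genes 8.23%). It was 0 with only the 2 groups compared (3.92%). Of the other pathway genes named, BTG1 alone passed the adjusted threshold in an alternative, without CON replicate 1. Summing the rows of a symbol changed nothing, since each member has 1 row. The planned count tests were not run, because the table listed as read counts holds rescaled FPKM. SESN1, SESN2 and GADD45G had the lowest mean levels and rested on 90.6 to 281 fragments per kilobase. The part of depth in their results was not tested.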
